A study of Mus musculus and Homo sapiens with 12 samples.

Results

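The genes described here are 8 targets of the transcriptional regulators YAP and SRF: TAGLN, ACTA2, CNN1, MYL9, TPM1, ANKRD1, CCN1 (also called CYR61) and CCN2 (CTGF). They were chosen by name, with earlier results of these data known, and each was read in a mouse and in a human table. All 8 were listed in each table, giving 16 entries among 114564 gene identifiers. The libraries are poly(A) RNA of 2 breast cancer cell lines. EMT6 is a mouse mammary carcinoma line, with 3 PFKFB4-knockout and 3 wild-type libraries. MDA-MB-231 is a human breast adenocarcinoma line, also with 3 PFKFB4-knockout and 3 wild-type libraries. PFKFB4 is a bifunctional enzyme that sets the level of a sugar phosphate controlling glycolysis. All cells, knockout and wild type alike, were kept in DMEM rich in glucose with fetal bovine serum, and serum is itself a stimulus of SRF. The labels name no guide, edited exon or clone, and call the libraries biological replicates without saying whether they came from separate cultures, so each p-value speaks of the spread among these libraries alone.

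SRF binds DNA at the CArG box. It works with actin-sensing cofactors, MRTFA and MRTFB, that enter the nucleus when free actin monomers are used up, and it drives genes of actin filaments and contraction. YAP and its relative TAZ (gene Wwtr1) are coactivators that the Hippo kinases LATS1 and LATS2 keep out of the nucleus. In the nucleus they bind TEAD factors at enhancers and promoters. Both arms respond to cell tension, and in carcinoma cells they are known for roles in spreading, migration and matrix production.

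Promoter stretches are shown for the mouse genes in which a word of SRF or of the TEAD factors was found. The genes were assigned to the 2 arms by name, not by these words. RefSeq promoters on GRCm38.p6, from 250 bases before to 50 after the start, were on hand for 6 of the 8 genes, which leaves out Tagln and Ccn2. The words searched were the CArG box (CC, 6 bases that are each A or T, then GG), a CArG-like word with 1 G or C among the inner 6, and the TEAD word GGAATG with its reverse complement CATTCC. No 2 words overlapped. The CArG box was in 1.63% of all 32851 promoter windows, the CArG-like word in 8.5% and the TEAD word in 14.7%. The 250 bases before the start are printed 5′ to 3′ along the gene, with these words in capitals.
Acta2, chr19:34255374-34255623, minus strand: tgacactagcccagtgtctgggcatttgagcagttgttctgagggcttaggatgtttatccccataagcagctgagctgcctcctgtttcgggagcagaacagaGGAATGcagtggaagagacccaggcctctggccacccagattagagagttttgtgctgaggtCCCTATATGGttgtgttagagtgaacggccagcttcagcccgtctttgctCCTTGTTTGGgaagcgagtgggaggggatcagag
Myl9, chr2:156775214-156775463, plus strand: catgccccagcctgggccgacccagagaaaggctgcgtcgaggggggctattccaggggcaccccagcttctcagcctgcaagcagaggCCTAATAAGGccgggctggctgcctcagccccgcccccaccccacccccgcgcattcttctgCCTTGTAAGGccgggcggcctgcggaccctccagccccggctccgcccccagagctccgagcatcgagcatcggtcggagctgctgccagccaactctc
Tpm1, chr9:67049214-67049463, minus strand: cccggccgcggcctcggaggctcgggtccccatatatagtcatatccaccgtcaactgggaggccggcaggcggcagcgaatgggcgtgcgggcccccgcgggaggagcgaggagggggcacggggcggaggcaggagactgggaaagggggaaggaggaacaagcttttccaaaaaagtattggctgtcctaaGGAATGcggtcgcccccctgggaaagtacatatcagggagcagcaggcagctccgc
Ankrd1, chr19:36119845-36120094, minus strand: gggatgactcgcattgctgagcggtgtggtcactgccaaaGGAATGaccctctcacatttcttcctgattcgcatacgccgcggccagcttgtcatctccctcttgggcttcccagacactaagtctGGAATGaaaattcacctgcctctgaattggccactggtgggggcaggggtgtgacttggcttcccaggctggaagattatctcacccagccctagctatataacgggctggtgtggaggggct
Ccn1, chr3:145649986-145650235, minus strand: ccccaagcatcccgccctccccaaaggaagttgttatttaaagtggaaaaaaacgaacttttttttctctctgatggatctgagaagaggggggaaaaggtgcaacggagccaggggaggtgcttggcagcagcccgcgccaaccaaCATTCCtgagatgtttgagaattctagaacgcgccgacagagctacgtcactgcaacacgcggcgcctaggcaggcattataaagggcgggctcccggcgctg

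Acta2 held 2 CArG-like words, CCCTATATGG and CCTTGTTTGG, and 1 TEAD word. Myl9 held the CArG box CCTAATAAGG and the CArG-like word CCTTGTAAGG. Ankrd1 held 2 TEAD words, and Tpm1 and Ccn1 held 1 each. Cnn1 held none of these words in its window. A matching word describes the sequence and does not show a bound site.

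Values are TPM, read counts corrected for gene length and scaled to 1000000 per library, so levels can be compared between genes of a table. The files do not give the reads behind a value. In EMT6 wild type the order of mean level was Tpm1 (318 TPM), Acta2 (304), Ccn1 (164), Ankrd1 (67.5), Ccn2 (12.9), Myl9 (6.98), Tagln (4.30) and Cnn1 (2.12). Tpm1 overlapped Acta2 between libraries, and Myl9 overlapped Tagln, so these neighbours could not be ordered. In MDA-MB-231 wild type the order was CCN1 (190 TPM), ANKRD1 (156), CCN2 (109), MYL9 (81.4), TPM1 (73.9) and TAGLN (53.9), with ACTA2 at 1.13 TPM. CNN1 came last, at 0.0895 TPM. MYL9 and TPM1 overlapped there. Acta2 thus led the contractile genes beside Tpm1 in the mouse line and was near the lower limit of the test in the human line. Tagln and Myl9 were low genes of the mouse line only, and Cnn1 was the lowest in wild type of both lines. The tables were made separately on different genomes, so these levels stand side by side without a test between lines.

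**Figure D1:**
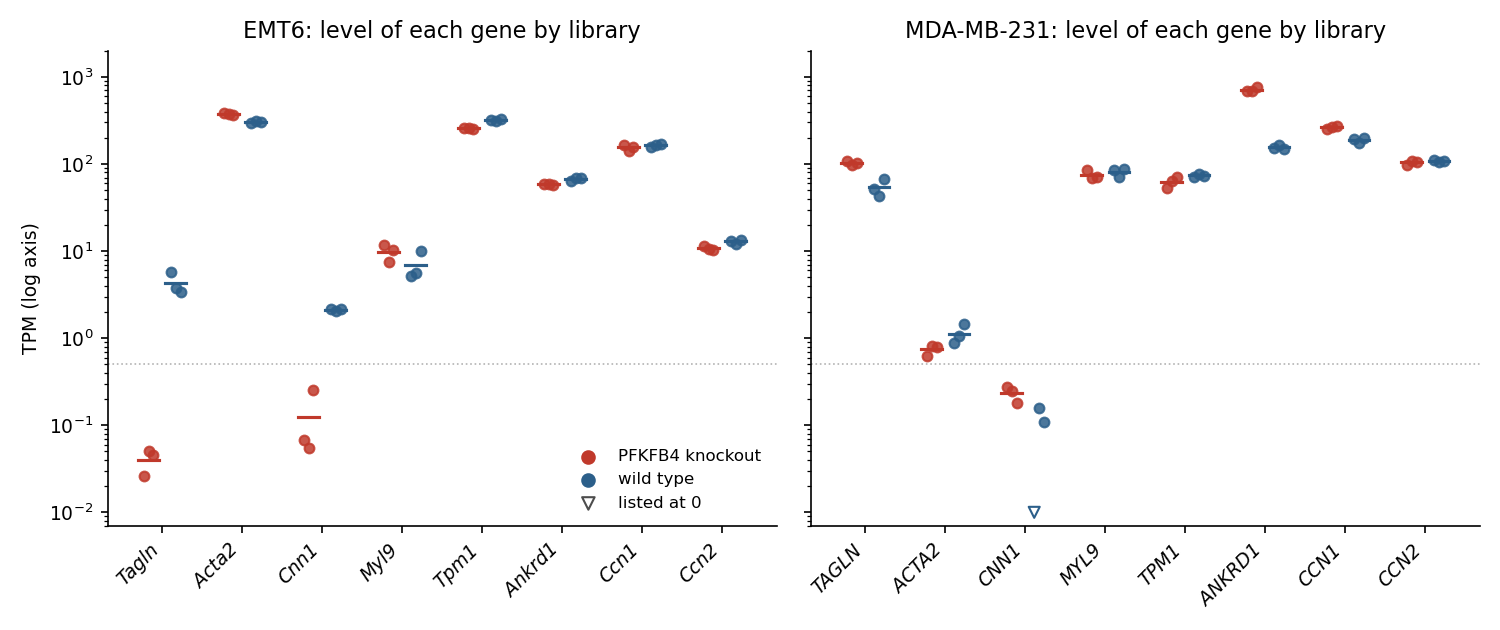
TPM of the 8 genes on a log axis in EMT6 (left) and MDA-MB-231 (right), by library, knockout left of wild type, with horizontal bars at group means except where a library is listed at 0. A triangle marks a library listed at 0, the dotted line marks 0.5 TPM, and Tagln and Cnn1 in EMT6 lie below it in knockout libraries only.

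The targeted gene was read first. Pfkfb4 had 6.96, 6.87 and 8.24 TPM in EMT6 knockout libraries, against 10.2, 10.5 and 10.4 TPM in wild type. The edited stretch is not stated, so this total says nothing of the edit, and the human PFKFB4 transcript was not analysed here. The number of genes at 1 TPM or more was 11871 to 12015 in EMT6 knockout libraries and 12350 to 12426 in wild type, and 13038 to 13338 in MDA-MB-231 knockout libraries and 13423 to 13593 in wild type. Of 13 epithelial markers, 10 had a mean under 1 TPM in EMT6 knockout and 9 in wild type, Epcam and Cdh1 among them, whereas Krt8, a keratin of simple epithelia, averaged 535 TPM in knockout and 482 TPM in wild type.

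Tagln and Cnn1 were much lower in EMT6 knockout libraries, and Acta2 was modestly higher. Tpm1, Ankrd1 and Ccn2 were slightly lower in TPM, and Myl9 and Ccn1 were not called. In MDA-MB-231, ANKRD1, TAGLN and CCN1 were higher, and the other 4 tested genes were not called. Differences were tested within each line by limma on log2(TPM + 1), with Benjamini-Hochberg adjusted p under 0.05 over all genes tested as the call, so that EMT6 had 1 gene higher and 5 lower of 8. Over all EMT6 genes, 14.5% were called higher, 42.3% lower and 56.7% in either direction, so a count of 6 called genes of 8 stands near the background. In MDA-MB-231, 3 of 7 tested genes were called, all higher, against 20.0% of all genes called and 7.97% called higher.

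Tagln encodes transgelin, an actin-binding protein of smooth muscle cells and activated fibroblasts. It had 0.0261, 0.05003 and 0.0450 TPM in EMT6 knockout libraries, against 5.74, 3.78 and 3.39 TPM in wild type. Every knockout library was close to 0 and every wild-type library was above 3 TPM. The log2 fold change was -2.32 ± 0.16 (SE; adjusted p by limma = 0.00029, n = 3 each), and the ratio of mean TPM was 0.00939. The log2 fold change was -4.94 with a pseudocount of 0.1 in place of 1, since the added 1 compresses low values. The mouse gene (ENSMUSG00000032085, chromosome 9, 45929619 to 45936058, minus strand, GRCm38) passed the filter, at least 0.5 TPM in 3 of 6 libraries, through its wild-type libraries alone. Its exons share 1241 nt with the antisense gene Gm48529 and 108 nt with Pcsk7 on the opposite strand. Gm48529 averaged 0.618 TPM in knockout and 0.549 TPM in wild type, and Pcsk7 averaged 6.57 and 8.81 TPM in knockout and wild type, neither called. Whether the authors' counting used strand is not given in the sources used here.

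Cnn1 encodes calponin 1, an actin-binding regulator of smooth muscle contraction. It had 0.0670, 0.0553 and 0.253 TPM in EMT6 knockout libraries, against 2.17, 2.03 and 2.16 TPM in wild type. No library of either genotype came near the other genotype's range, and this gene too passed the filter through wild type alone. Its log2 fold change was -1.48 ± 0.09 (SE; adjusted p by limma = 0.00019). Tagln and Cnn1 were the 2 members called with at least a 2-fold fall on this scale, which 4.6% of all EMT6 genes did. A 2-fold rise was called for 0 members, beside 1.5% of all genes. Because both genes were tested through wild type alone, a call could only be a fall, so the count gives no evidence on direction. In bulk RNA, fewer cells with a transcript and less transcript per cell cannot be told apart.

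Acta2, the smooth muscle actin isoform used as a marker of myofibroblasts, went the other way. It had 385, 371 and 364 TPM in EMT6 knockout libraries, against 293, 313 and 305 TPM in wild type. All 3 knockout libraries lay above all 3 wild-type libraries. The log2 fold change was 0.30 ± 0.04 (SE; adjusted p by limma = 0.00204), against 0.54 under median-ratio scaling and 0.30 once the exon length trend was removed. Per library, the ratio of Acta2 to Tpm1 TPM was 1.42 to 1.49 in knockout and 0.914 to 1.01 in wild type. Actin coding sequences are closely alike among paralogs, so an uncertain part of these reads could have been placed on another actin gene. A rise was not particular to Acta2. Actb, the most abundant actin gene, was also called higher, at 0.28 (adjusted p by limma = 0.0302). Actb was at 0.52 under median-ratio scaling and 0.37 once the exon length trend was removed, called under both. Actg1 was called lower in TPM, at -0.22 (adjusted p = 0.00743), but not under median-ratio scaling (0.02). How far reads of Actb enter the Acta2 values was not tested.

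The other contractile genes of EMT6 were Tpm1, whose call depended on the scale, and Myl9, whose libraries spread too widely for a call. Tpm1, a tropomyosin that lines actin filaments, had 258, 261 and 255 TPM in knockout libraries, against 321, 310 and 325 TPM in wild type. These groups were apart, and the log2 fold change was -0.30 ± 0.03 (SE; adjusted p by limma = 0.00113). Median-ratio scaling put it at -0.06 (adjusted p = 0.147) and removal of the exon length trend at 0.026 (adjusted p = 0.554). The call thus rests on the TPM scale, and the sign reversed only with the length trend removed. Myl9, a regulatory light chain of smooth and non-muscle myosin, had 11.6, 7.45 and 10.2 TPM in knockout libraries, against 5.24, 5.65 and 10.1 TPM in wild type. Wild-type replicate 3 stood among the knockout libraries. The log2 fold change was 0.46 ± 0.26 (SE; adjusted p by limma = 0.18; 95% interval -0.18 to 1.10). Without that library it was 0.72 (adjusted p = 0.0277), so 1 library decided whether Myl9 was called.

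The 3 YAP targets among the members were near their wild-type levels in EMT6. Ankrd1, an ankyrin repeat protein that acts as a nuclear cofactor in muscle, had 58.8, 59.0 and 57.8 TPM in knockout libraries, against 64.1, 69.9 and 68.5 TPM in wild type. The groups did not overlap (log2 fold change -0.20 ± 0.05, SE; adjusted p by limma = 0.0112). Ccn2, a secreted matricellular protein, had 11.4, 10.6 and 10.4 TPM in knockout libraries, against 13.2, 12.1 and 13.4 TPM in wild type (log2 fold change -0.24 ± 0.07, SE; adjusted p = 0.0241). Ccn1, its close relative, had 166, 142 and 158 TPM in knockout libraries, against 156, 167 and 168 TPM in wild type, and the groups overlapped (log2 fold change -0.08; adjusted p = 0.353; 95% interval -0.25 to 0.09). Under median-ratio scaling Ankrd1 was at 0.034 (adjusted p = 0.618), Ccn2 at -0.02 (0.831) and Ccn1 at 0.16 (0.153). With the exon length trend removed they were at -0.09 (adjusted p = 0.132), -0.13 (0.12) and -0.10 (0.197). Ccn2 also lost its call in 4 of the 6 fits that left out 1 library, with adjusted p up to 0.0757. The exons of Ccn2 share 665 nt with Gm15270 on the opposite strand, which had 0.573 TPM in knockout and 0.213 TPM in wild type.

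**Figure D2:**
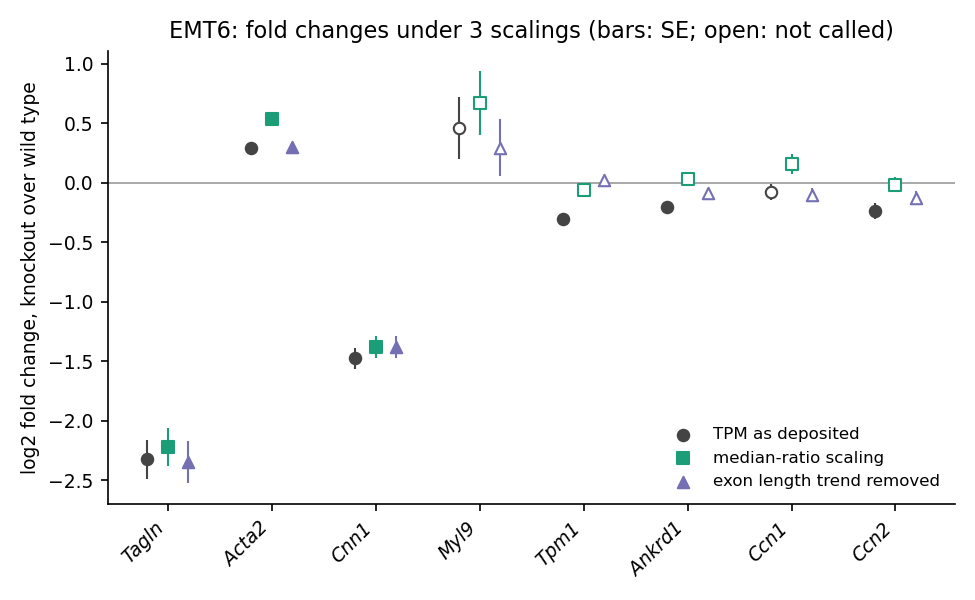
EMT6 log2 fold changes, knockout over wild type, for the 8 genes under 3 scalings, with SE bars and open symbols where adjusted p was 0.05 or above. Tagln, Cnn1 and Acta2 stay called under each, and Tpm1, Ankrd1 and Ccn2 are called in TPM only.

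The choice of scale matters here because the median log2 fold change of all tested EMT6 genes was -0.21 in TPM. Median-ratio scaling shifted it by 0.19 and removal of the length trend by 0.16. The share of all EMT6 calls that were higher was 25.5% in TPM, 51.1% after median-ratio scaling and 46.5% once the length trend was removed. The 8 members had a median of -0.22 in TPM, beside -0.21 for all genes. Relative to that shift, Tagln and Cnn1 remained lower and Acta2 higher, and Tpm1, Ankrd1 and Ccn2 lost their calls under both other scalings. Summed over the 8 genes, TPM was 851 to 891 in EMT6 knockout libraries and 861 to 895 in wild type.

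ANKRD1 had the largest difference among the 7 tested human members. It had 696, 686 and 767 TPM in MDA-MB-231 knockout libraries, against 152, 167 and 149 TPM in wild type. The lowest knockout library stood far above the highest wild-type library. The log2 fold change was 2.19 ± 0.08 (SE; adjusted p by limma = 3.99e-05, n = 3 each), a ratio of mean TPM of 4.59. A rise of at least 2-fold was called for 0.758% of all genes in this line, and a 2-fold fall for 2.79% of them and for 0 members. It was 2.14 to 2.24 across the 12 alternative settings, with adjusted p of at most 0.00178. ANKRD1 thereby passed CCN1 as the most abundant of the 8 transcripts in knockout.

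TAGLN was also higher in MDA-MB-231 knockout. It had 108, 97.7 and 103 TPM in knockout libraries, against 51.9, 43.1 and 66.6 TPM in wild type. Wild type spread more widely than knockout, yet the groups were apart. The log2 fold change was 0.94 ± 0.16 (SE; adjusted p by limma = 0.00903), and over 12 alternative settings it was 0.80 to 1.10 with adjusted p of 0.00478 to 0.0389. CCN1 had 251, 270 and 275 TPM in knockout libraries, against 193, 176 and 201 TPM in wild type, again without overlap. Its log2 fold change was 0.48 ± 0.08 (SE; adjusted p by limma = 0.00801), with 0.43 to 0.53 and adjusted p of 0.00555 to 0.0389 over the same settings.

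CCN2, unlike CCN1 and ANKRD1, was not called. It had 98.03, 108 and 106 TPM in MDA-MB-231 knockout libraries, against 111, 107 and 108 TPM in wild type. The groups overlapped, and the log2 fold change was -0.06 ± 0.07 (SE; adjusted p by limma = 0.566; 95% interval -0.22 to 0.10). In each library, the ratio of ANKRD1 to CCN2 TPM was 6.33 to 7.21 in knockout and 1.37 to 1.56 in wild type. The ratio of CCN1 to CCN2 TPM was 2.49 to 2.59 in knockout and 1.65 to 1.86 in wild type. These ratios within a library do not depend on its scaling, and the ranges of knockout and wild type were apart for both. In EMT6 the ratio of Ankrd1 to Ccn2 was 5.16 to 5.57 in knockout and 4.85 to 5.78 in wild type, and these ranges overlapped.

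The other human contractile genes were not called. MYL9 had 84.6, 69.2 and 71.2 TPM in MDA-MB-231 knockout libraries, against 85.5, 71.1 and 87.6 TPM in wild type, with overlap (log2 fold change -0.12; adjusted p by limma = 0.527; 95% interval -0.40 to 0.16). TPM1 had 53.1, 63.5 and 71.3 TPM in knockout libraries, against 70.6, 77.5 and 73.6 TPM in wild type (log2 fold change -0.24; adjusted p = 0.191; 95% interval -0.52 to 0.03). Only the highest TPM1 knockout library reached the wild-type range. ACTA2 was low, with 0.631, 0.813 and 0.798 TPM in knockout libraries, against 0.886, 1.05 and 1.46 TPM in wild type (log2 fold change -0.28; adjusted p = 0.172; 95% interval -0.58 to 0.02). Its groups did not overlap, but the difference missed the call. CNN1 did not pass the filter and was not tested. It had 0.277, 0.249 and 0.180 TPM in knockout libraries, and in wild type it was listed at 0 in replicate 1, with 0.159 and 0.110 TPM in the others.

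Among tested human members, 4 of 7 had groups that did not overlap, against 40.1% of all genes, and in EMT6 6 of 8, against 66.2%. The human members had a median log2 fold change of -0.06, beside -0.04 for all genes. The sum over the 8 genes was 1291 to 1396 TPM in MDA-MB-231 knockout libraries and 643 to 688 TPM in wild type. Most of that difference came from ANKRD1, and the sum of the 5 contractile genes was 231 to 247 TPM in knockout and 193 to 229 TPM in wild type.

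**Figure D3:**
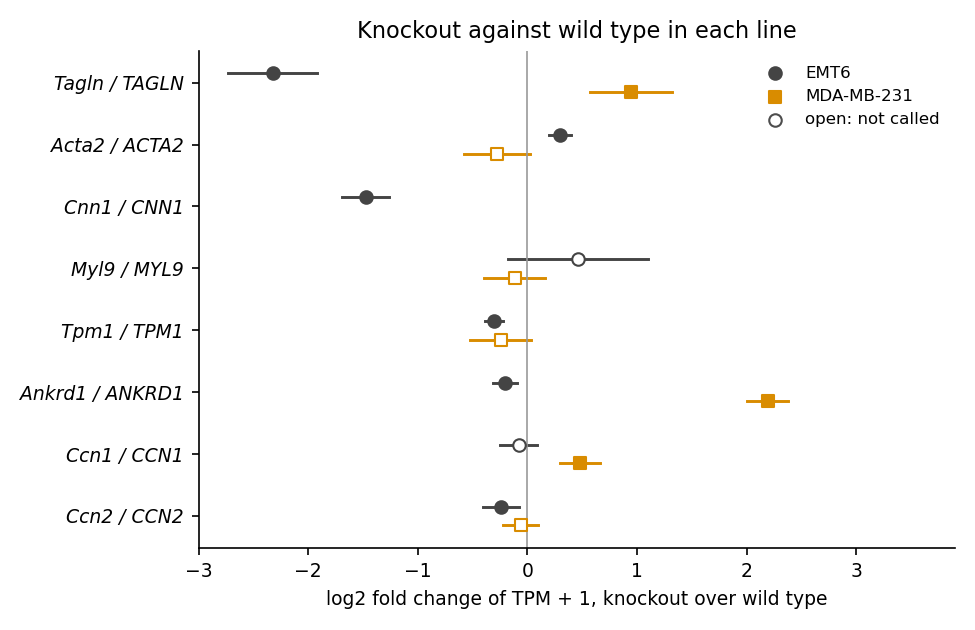
Log2 fold change of each gene, knockout over wild type, with 95% intervals, for EMT6 (circles) and MDA-MB-231 (squares), open where not called and absent where not tested. Tagln/TAGLN lies at -2.32 in EMT6 and 0.94 in MDA-MB-231, and Ankrd1/ANKRD1 at -0.20 and 2.19.

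Paralogs of the members were read in EMT6, where identifiers pair with symbols. Of the 6 actin genes, Actb held 83.0 ± 1.1% of the summed TPM in knockout and 78.4 ± 0.8% in wild type, and Acta2 held 2.73 ± 0.15% and 2.55 ± 0.08% (SD, n = 3 each). Of the sparse isoforms, Acta1, the skeletal actin, averaged 0.0864 TPM in knockout and 2.77 TPM in wild type (log2 fold change -1.78; adjusted p by limma = 0.000283). Actg2, the enteric smooth muscle actin, averaged 0.580 TPM in knockout and 1.54 TPM in wild type (log2 fold change -0.68; adjusted p = 0.000715). Both were lower and kept their calls under the other 2 scalings, and Acta1 passed the filter through wild type alone. Acta1 and Actg2 were chosen from the fixed list of SRF targets after their values were seen.

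The abundant relatives of Tagln and Cnn1 were not called in TPM. Tagln2 averaged 345 ± 4 TPM in knockout and 324 ± 12 TPM in wild type (log2 fold change 0.09; adjusted p by limma = 0.0924), so Tagln was 0.0117% of transgelin TPM in knockout and 1.32% in wild type. Cnn3 averaged 664 TPM in knockout and 680 TPM in wild type (adjusted p = 0.563), and Cnn2 100 and 94.3 TPM (adjusted p = 0.114). Median-ratio scaling called Tagln2 (0.33), Cnn2 (0.33) and Cnn3 (0.21) higher, and removal of the length trend Cnn2 alone of these (0.14).

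Among the tropomyosins of EMT6, Tpm2 was called higher in TPM. Tpm2 averaged 247 ± 9 TPM in knockout and 188 ± 13 TPM in wild type (SD; log2 fold change 0.39; adjusted p by limma = 0.00275), and was higher under both other scalings. Its share of the 4 tropomyosin genes was 18.4% in knockout and 12.8% in wild type, while that of Tpm1 was 19.2% and 21.7% and that of Tpm3 39.0% and 45.05%. The share of Tpm4 was 23.4% in knockout and 20.4% in wild type, and Tpm4 was called higher under median-ratio scaling only (0.31; adjusted p = 0.00115). Myl9 was 1.70% of the 3 regulatory light chain genes in knockout and 1.30% in wild type, and Myl12a held 67.3% and 64.9%.

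Within the CCN family of EMT6, Ccn4 averaged 5.74 ± 0.34 TPM in knockout and 12.7 ± 0.8 TPM in wild type (SD; log2 fold change -1.03; adjusted p by limma = 0.000282). Ccn5 averaged 19.7 ± 2.4 TPM in knockout and 13.8 ± 1.1 TPM in wild type (log2 fold change 0.48; adjusted p = 0.00957). Both are secreted matricellular proteins, first described as targets of Wnt signalling, and both kept call and sign under the other 2 scalings. Ccn1 held 81.0% of the family's TPM in knockout and 80.5% in wild type.

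**Figure D4:**
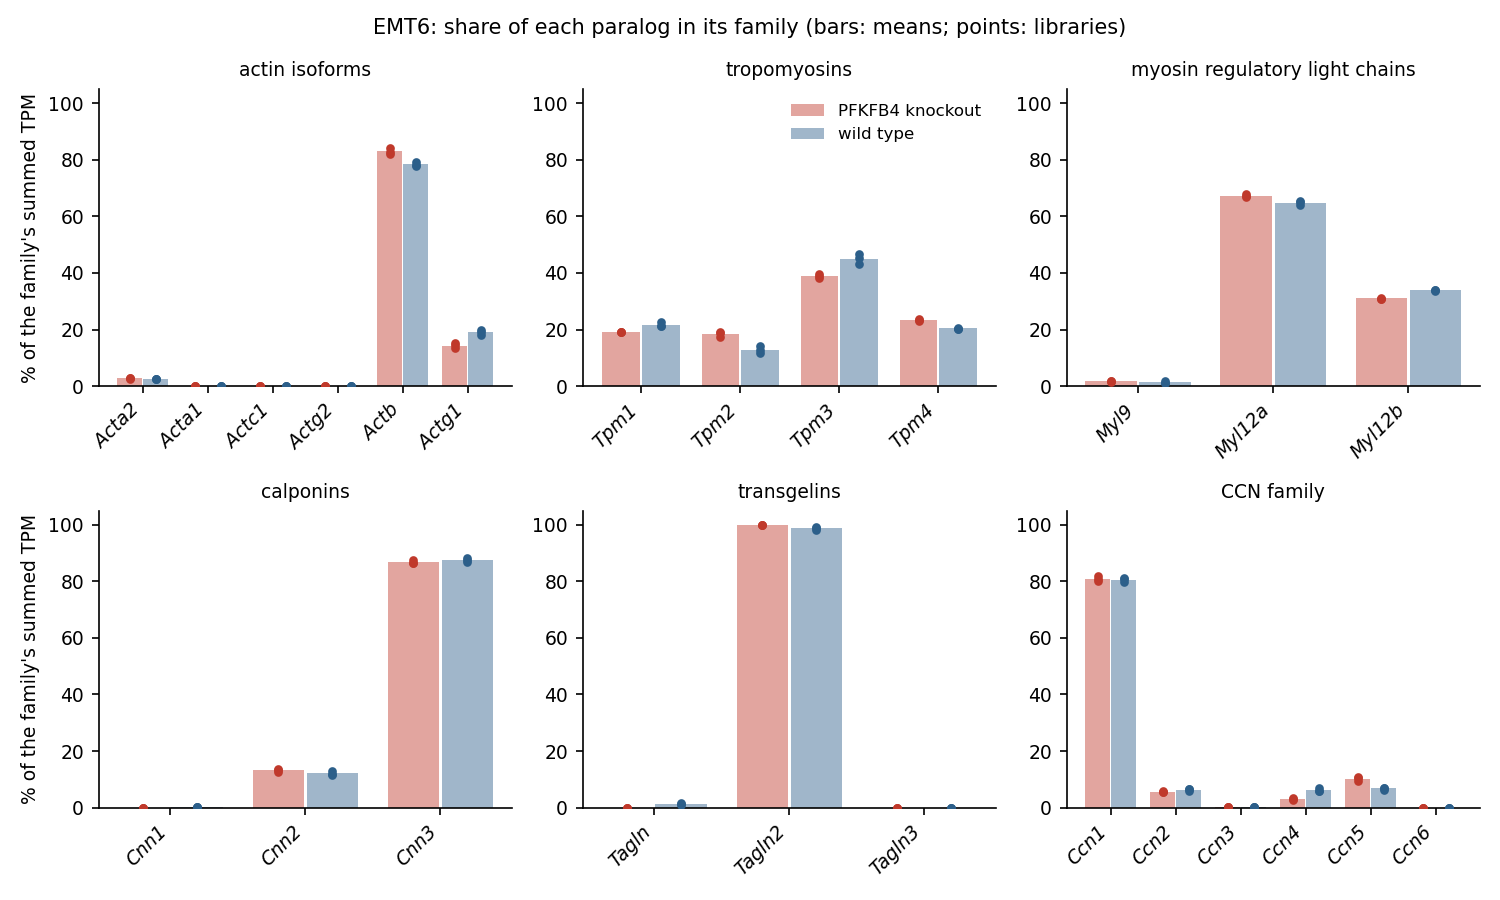
Share of each paralog in the summed TPM of its family in EMT6, in percent, knockout bars left of wild-type bars, with the mean as bar and the 3 libraries as points. Tpm2 takes 18.4% of tropomyosin TPM in knockout and 12.8% in wild type, and Tagln 0.0117% and 1.32% of transgelin TPM.

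Of 22 other YAP and TEAD targets 19 were tested in EMT6, with 2 called higher and 12 lower in TPM, beside 14.5% higher and 42.3% lower among all genes. Their median was -0.43, beside -0.21 for all genes, which were themselves lower more often than higher. It was -0.21 after median-ratio scaling, beside -0.01 for all genes, and -0.09 with the length trend removed, beside -0.04. Nt5e, a surface enzyme that makes adenosine, averaged 7.91 TPM in knockout and 16.6 TPM in wild type (log2 fold change -0.99; adjusted p by limma = 0.000379). Axl, a receptor tyrosine kinase, averaged 74.4 TPM in knockout and 170 TPM in wild type (-1.19; adjusted p = 0.00214), and Dock5, a Rac activator, 3.15 and 6.60 TPM (-0.87; adjusted p = 0.000529). Gadd45a, a stress-response gene, averaged 24.2 TPM in knockout and 18.4 TPM in wild type (0.38; adjusted p = 0.0081). These 4 kept their calls under both other scalings. The list as a whole had 4 higher and 8 lower of 19 after median-ratio scaling, beside 3584 and 3426 of all 13499 genes. With the length trend removed it had 5 and 6, beside 3123 and 3588 of all 13487 genes.

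Other cytoskeletal SRF targets went both ways. Of 31 listed genes 27 were tested, with 5 called higher and 15 lower, beside 14.5% and 42.3% of all genes, and a median of -0.22, beside -0.21 for all genes. Median-ratio scaling gave 11 higher and 9 lower of 27, beside 3584 and 3426 of all 13499 genes. Removal of the length trend gave 7 and 9, beside 3123 and 3588 of all 13487 genes. The list median was 0.02 under each of these, beside -0.01 and -0.04 for all genes. Vcl, the focal adhesion protein vinculin, averaged 36.1 ± 3.1 TPM in knockout and 85.4 ± 7.1 TPM in wild type (SD; log2 fold change -1.22; adjusted p by limma = 0.000274). Itga5, the fibronectin receptor subunit, averaged 13.1 TPM in knockout and 25.8 TPM in wild type (-0.93; adjusted p = 0.000194), and Tgfb1i1, a focal adhesion adaptor, 10.8 and 19.5 TPM (-0.79; adjusted p = 0.000562). Myl6, the essential light chain of myosin, averaged 2083 TPM in knockout and 1540 TPM in wild type (0.44; adjusted p = 0.000839). Fhl2, a LIM-domain cofactor, was at 0.30 (adjusted p = 0.026) but missed the call after length trend removal (adjusted p = 0.0604). The other 4 of these named genes, Vcl, Itga5, Tgfb1i1 and Myl6, stayed called under both other scalings.

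The immediate early genes that SRF drives with its ternary complex factors had 3 higher and 5 lower of 14 in EMT6, near the 14.5% higher and 42.3% lower of all genes. Their median was -0.09, beside -0.21 for all genes. Dusp1, a phosphatase of MAP kinases, averaged 21.2 TPM in knockout and 55.4 TPM in wild type (log2 fold change -1.34; adjusted p by limma = 0.000127). Nr4a1, a nuclear receptor, was at -1.79 (adjusted p = 0.00167) and Egr1, a zinc finger factor, at -0.60 (adjusted p = 0.0117). Egr1 missed the call after median-ratio scaling (adjusted p = 0.0578) and after length trend removal (0.0694). Atf3, a stress-induced factor, averaged 7.39 TPM in knockout and 1.47 TPM in wild type (1.77; adjusted p = 0.000413), and Ier2 (0.37) and Junb (0.18) were also higher. Median-ratio scaling gave 6 higher and 3 lower of 14 in this list, beside 3584 and 3426 of all 13499 genes. Removal of the length trend gave 3 and 4, beside 3123 and 3588 of all 13487 genes. The list median was 0.14 and 0.03 under these, beside -0.01 and -0.04 for all genes.

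In the list of YAP and Hippo factors, 12 of 18 tested genes were lower and 0 higher, beside 42.3% lower and 14.5% higher among all EMT6 genes. Its median was -0.56, beside -0.21 for all genes. That median was -0.34 after median-ratio scaling, beside -0.01 for all genes, and -0.18 with the length trend removed, beside -0.04. Sav1 (-0.72), a scaffold of the Hippo kinases, Amot (-0.78), a junction protein that binds YAP, and Stk4 (-0.63), a Hippo kinase, had limma adjusted p of 0.000422, 0.00153 and 0.0022. Yap1 itself averaged 19.2 TPM in knockout and 23.5 TPM in wild type (-0.28; adjusted p = 0.00682). Median-ratio scaling (-0.05, adjusted p = 0.427) and length trend removal (0.12, adjusted p = 0.0537) each took its call away. Among the TEAD genes, Tead1 to Tead4 were at -0.59, -0.68, -1.44 and -0.37, and only Tead3 kept its call under both other scalings. Lats2, a Hippo kinase that YAP itself induces, varied widely, with 10.1, 6.52 and 2.76 TPM in knockout libraries, against 14.2, 24.5 and 3.69 TPM in wild type (adjusted p = 0.344). Yap1, the TEAD genes and Lats2 were named after their values were seen.

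Sav1, Amot and Stk4 kept their calls under both other scalings. After median-ratio scaling the list as a whole had 0 higher and 8 lower of 18, beside 3584 and 3426 of all 13499 genes. Once the length trend was removed it had 2 and 7, beside 3123 and 3588 of all 13487 genes. Srf itself averaged 34.4 ± 3.1 TPM in knockout and 37.5 ± 4.1 TPM in wild type (SD; adjusted p by limma = 0.354). Its cofactors Mrtfa (-0.36; adjusted p = 0.00245) and Mrtfb (-0.31; adjusted p = 0.0251) were lower in TPM, and neither was called under the other 2 scalings. Srf, Mrtfa and Mrtfb were named after their values were seen.

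**Figure D5:**
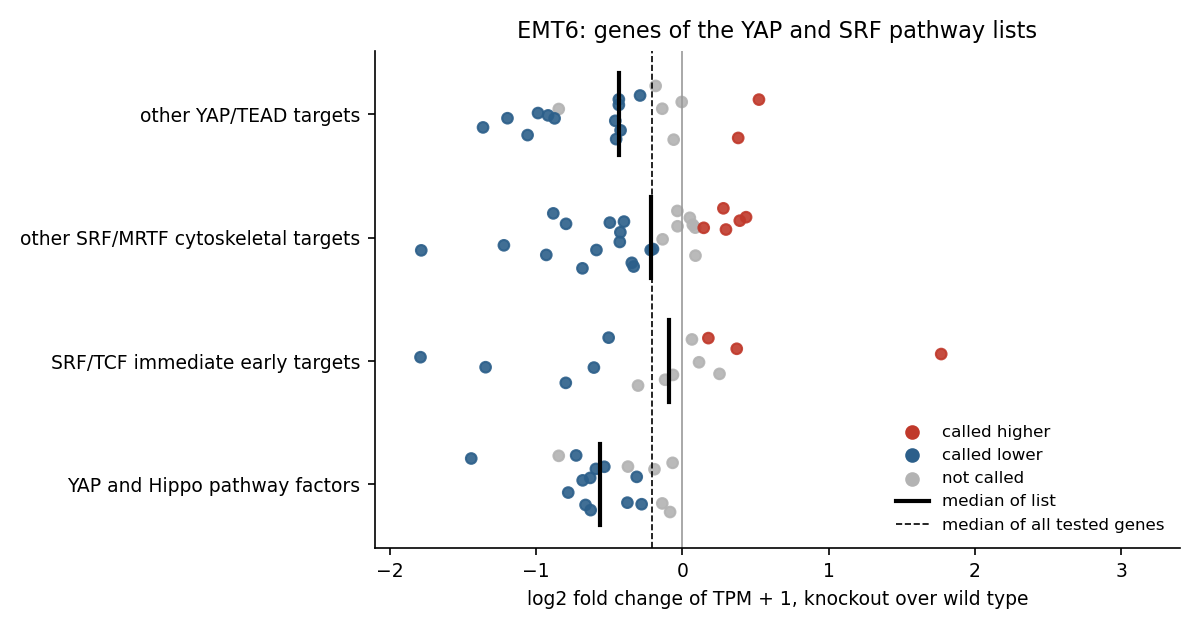
EMT6 log2 fold changes, knockout over wild type, for the tested genes of 4 lists, each point a gene, spread vertically at random, with a solid bar at each list's median. All values are for TPM without further scaling. The dashed line is the median of all tested genes (-0.21). The list medians run from -0.56 for YAP and Hippo factors to -0.09 for immediate early targets.

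Markers of other cells that carry the contractile genes were read beside the members in EMT6. The 11 smooth muscle and myofibroblast markers summed to 1.64 to 1.93 TPM in knockout libraries and 2.36 to 2.97 TPM in wild type. Myh11, smooth muscle myosin, averaged 0.00301 TPM in knockout and 0.00221 TPM in wild type, and Myocd, the cofactor that defines smooth muscle, was at 0 in every library. Of the 2 markers in this list that were tested, Mcam, which passed the filter through wild type alone, was at -0.65 (adjusted p by limma = 0.00187) and Pdgfrb at -0.21 (adjusted p = 0.0228), the second not called under the other 2 scalings. The 10 fibroblast markers summed to 236 to 244 TPM in knockout libraries and 523 to 538 TPM in wild type. Of 5 tested, 1 was called higher and 4 lower, beside 14.5% higher and 42.3% lower among all EMT6 genes. Lum, Dpt and Tcf21 were at 0 in every library. Col1a1, a fibrillar collagen chain that carcinoma cells also express, averaged 52.4 TPM in knockout and 200 TPM in wild type (-1.92; adjusted p = 2.05e-05). Dcn, named because it went the other way, averaged 2.52 TPM in knockout and 0.412 TPM in wild type (1.32; limma adjusted p = 0.000156). Dcn passed the filter through knockout alone and kept its call under the other 2 scalings. The 12 leukocyte markers summed to 58.8 to 64.4 TPM in knockout libraries and 25.1 to 29.4 TPM in wild type. Of 3 tested, 2 were called higher and 0 lower, beside 14.5% higher and 42.3% lower among all EMT6 genes. Cd68 averaged 56.1 TPM in knockout and 23.9 TPM in wild type (1.20; limma adjusted p = 0.000265). Coro1a averaged 5.14 and 2.17 TPM (0.95; adjusted p = 0.000253), and both kept their calls under the other 2 scalings. Ptprc averaged 0.00265 TPM in knockout and was at 0 in wild type. Endothelial markers summed to 0.241 to 1.44 TPM in knockout libraries and 0.296 to 0.372 TPM in wild type. Among keratins, Krt8 was higher (0.15; adjusted p = 0.0302), and Krt14 (-2.92; adjusted p = 1.06e-05) and Krt18 (-1.17; adjusted p = 0.000368) were lower. The part of these markers in the results for Tagln and Cnn1 was not tested.

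The EMT6 genes most like Tagln and Ccn2 were taken by Pearson correlation of log2(TPM + 1) over the 6 libraries, among tested genes averaging 10 TPM or more. For Tagln they were Kif11, a mitotic kinesin, Nos2, the inducible nitric oxide synthase, Ehd2, a caveolar protein, Ogt, which attaches sugars to proteins, and Sgpl1, a lipid lyase, with r of 0.999 to 0.9996. For Ccn2 they were Trabd, E030030I06Rik, Eif4enif1, Entr1 and Ss18, with r of 0.987 to 0.997. Among the members, r with Tagln was 0.98 for Cnn1, 0.98 for Tpm1, 0.90 for Ccn2, 0.87 for Ankrd1 and 0.40 for Ccn1. It was -0.98 for Acta2 and -0.67 for Myl9. With 2 genotypes of 3 libraries each, r between genes whose groups are apart is set largely by the gap between genotypes, in either line. In MDA-MB-231, TAGLN had r = 0.96 with CCN1 and 0.92 with ANKRD1, and human genes that are no members were not read.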

How the data were processed

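Poly(A) RNA of 12 libraries was measured, in 2 lines with 3 PFKFB4-knockout and 3 wild-type libraries each. Builds mm10 and GRCh38.p7 are listed in the submitters' processing notes, which also name TopHat2 2.1.1, CASAVA 1.8.2, Subread 1.6.4 and its featureCounts, without settings or strand. The authors deposited TPM, 1 table per line, in which each library sums to 1000000. TPM keeps no depth, so the reads behind a value are unknown. Columns coded A7 (EMT6) and G2 (MDA-MB-231) were taken as knockout by elimination, because the others are named wild type, and their replicate numbers come from the column names.

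Symbols were found for 54097 of 54331 mouse identifiers (GENCODE M21, GRCm38, the assembly that mm10 names). Human members were found by Ensembl identifier, and other human genes were not analysed here. Each line was fitted with limma 3.58.1 (R 4.3.3, mean-variance trend, no covariate) on log2(TPM + 1), for genes with at least 0.5 TPM in at least 3 of 6 libraries. Fold changes are on that scale and understate low genes. The fit was also run on simulated data with few changed genes, a setting unlike EMT6, and no result here rests on that run. Tables were handled in Python 3.11.15.

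The members and lists were chosen with earlier results of these data known. Named genes were all members, Pfkfb4, per list, up to 3 genes called higher and 3 called lower, taken by lowest adjusted p among those averaging 5 TPM or more in the higher group, and the 5 genes most like Tagln and Ccn2; some of these stand in the text only within their list's counts. Paralogs of the members (except Acta1 and Actg2), overlapping genes and defining markers of other cell types were named beside them whatever their values. Genes otherwise outside the rule are marked. Results of 1 further gene list are not reported here as a whole. The CArG-like word was added after the promoters were read. Alternatives were no trend, median-ratio scaling, no filter, a 1 TPM filter, a pseudocount of 0.1, a replicate block, leaving out each library, removal of the exon length trend and a 2-fold minimum.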

Additional observations from a re-analysis of the deposited data

Results flagged for a closer look

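In all, 4 of the genes had knockout libraries wholly on 1 side of wild type in EMT6 and wholly on the other side in MDA-MB-231. Groups were apart, in either direction, for 66.2% of all tested genes in EMT6 and 40.1% in MDA-MB-231. How many of all genes were apart in opposite directions was not counted, so the 4 have no background of their own. Tagln had a log2 fold change of -2.32 in EMT6, and TAGLN 0.94 in MDA-MB-231. Ankrd1 was at -0.20 in EMT6 and ANKRD1 at 2.19 in MDA-MB-231. In EMT6, Ankrd1 was at 0.034 under median-ratio scaling and -0.09 with the exon length trend removed, called under neither. Its call thus rests on the TPM scale, and its sign depends on the scaling. Acta2 was at 0.30 in EMT6 and ACTA2 at -0.28 in MDA-MB-231, where it was not called. Cnn1 was at -1.48 in EMT6, and CNN1, which needed the fit with no filter, at 0.18 in MDA-MB-231, where every library was under 0.5 TPM. The difference between the lines was not tested, because the tables were made separately on different genomes.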

How the results depend on the processing

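Over the settings run, 174 of 187 repeated fold changes of the 15 tested genes kept their sign and their side of the threshold. Tagln, Cnn1 and Acta2 in EMT6 and ANKRD1, TAGLN and CCN1 in MDA-MB-231 did so in every fit. Members called lower in EMT6 numbered 2 of 8 under median-ratio scaling and with the exon length trend removed, where 3426 of 13499 and 3588 of 13487 genes were called lower in all, so that 2 of 8 stands at the background. It was 2 with a 2-fold minimum as well, where 0 were higher. The signs of Tpm1 (0.026, length trend removed), Ankrd1 (0.034) and Ccn1 (0.16, both median-ratio scaling) reversed. Leaving out a library gave 1 to 2 members higher and 4 to 5 lower in EMT6, and 3 higher in MDA-MB-231 each time. With a 2-fold minimum 1 human member was called higher, and all genes called numbered 823 in EMT6 and 543 in MDA-MB-231. Leaving out a library gave 6248 to 6954 and 1551 to 2530 genes called.

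Same-numbered libraries deviated from their group means with correlations between -0.02 and 0.07 (EMT6) or -0.13 and 0.11 (MDA-MB-231), so the numbers were not taken as pairs. With the replicate number as a block, 1564 genes were called in MDA-MB-231, against 3065 without it, and Ccn2 in EMT6 lost its call (adjusted p = 0.0566). The causes were not tested. Exon lengths and other gene lists were not run for MDA-MB-231. Low values, such as Tagln in EMT6 knockout and CNN1, rest on an unknown number of reads.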
